A study of Homo sapiens with 4 samples.

Results

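The 8 genes that lie under the densest windows of the deposited ATAC-seq peak list were chosen by their summit counts. A summit is the point of highest read pileup in a listed peak, and each line of the list is 1 summit. When the listed genome was divided into windows of 100 kb, the 10 windows with the most summits held between 439 and 531, and each of the 8 genes overlapped at least 1 of them. The next window, at rank 11 with 435 summits, lies on chromosome 5 and overlaps none of these genes. The genes are GSE1, ZFPM1, CACNA1H, RXRA, NOTCH1, KCNT1, BAI1 (now named ADGRB1) and BAIAP2. A summit was assigned to a gene when it lay inside the gene's interval in hg19, and 4501 of the 371521 listed summits (1.21%) did so, over 911 kb of sequence. Because the genes were chosen by these counts, the counts and everything else taken from the same list are given as a description, without tests.

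The list came from T47D-MTVL cells, a T47D breast cancer derivative with a single integrated luciferase reporter driven by the MMTV promoter. In the multiH1 knock-down (2 samples) an shRNA targeted more than 1 variant of linker histone H1, and in the control (2 samples) the cells carried a random shRNA. Both groups were in RPMI medium and carry the reporter, and DNA accessibility was read from Tn5 transposition. The labels do not say whether the cells were a clone or a population, or whether the samples came from separate cultures. The track line of the list names a first shRNA by a code, then the word Differential and RDsh, the name of the control samples. The name under which the list was deposited has multiH1sh, the title of the knock-down samples, in the place of that code. What the word Differential means here is not given in the sources used. No summit has a value for each sample, so there is no spread between replicates and no value below is a difference between knock-down and control. The list holds no expression, so the cell type was not checked against markers, and exons and introns were not placed because no hg19 annotation was used here.

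Linker histone H1 binds the nucleosome where DNA enters and leaves it and is known to help compact chromatin. In ATAC-seq, the transposase inserts preferentially where DNA is free of nucleosomes, so that promoters and enhancers usually give narrow peaks. The 8 genes have unrelated roles. GSE1 is known as a partner of histone deacetylase corepressor complexes, ZFPM1 (FOG1) as a cofactor of GATA factors, and RXRA as the nuclear receptor that pairs with retinoic acid and vitamin D receptors. NOTCH1 is a cell surface receptor whose cleaved inner part acts in the nucleus, and BAI1 is an adhesion receptor. BAIAP2 is an adaptor, named for its binding to BAI1, that links small GTPases to actin. CACNA1H forms the pore of a low-voltage-activated calcium channel, and KCNT1 that of a sodium-activated potassium channel. CACNA1H and KCNT1 are best known from excitable cells, whereas RXRA and NOTCH1 are widely expressed.

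The starts of 6 of the 8 genes were matched in the RefSeq promoter table (GRCh38.p14). The sequences of 4 of them are shown because they span the range of base composition at the 5′ ends of these genes. Each gives the 250 bases before the gene's most upstream start in that table, read 5′ to 3′ on the gene's strand. Capitals mark the GC box (GGGCGG or its reverse complement CCGCCC, both strands searched, overlapping matches counted separately).
RXRA (chr9:134326205-134326454, plus strand): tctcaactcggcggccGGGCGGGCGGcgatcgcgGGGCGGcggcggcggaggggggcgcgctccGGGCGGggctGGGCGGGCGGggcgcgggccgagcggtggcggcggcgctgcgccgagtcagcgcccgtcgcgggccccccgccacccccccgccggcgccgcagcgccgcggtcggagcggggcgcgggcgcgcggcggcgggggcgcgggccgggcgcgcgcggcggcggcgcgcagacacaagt
ZFPM1 (chr16:88453030-88453279, plus strand): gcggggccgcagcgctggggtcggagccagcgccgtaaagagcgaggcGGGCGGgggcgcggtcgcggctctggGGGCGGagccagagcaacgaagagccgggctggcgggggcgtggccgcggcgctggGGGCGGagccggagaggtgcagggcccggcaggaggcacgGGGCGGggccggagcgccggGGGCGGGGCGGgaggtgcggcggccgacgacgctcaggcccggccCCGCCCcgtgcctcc
BAIAP2 (chr17:81034901-81035150, plus strand): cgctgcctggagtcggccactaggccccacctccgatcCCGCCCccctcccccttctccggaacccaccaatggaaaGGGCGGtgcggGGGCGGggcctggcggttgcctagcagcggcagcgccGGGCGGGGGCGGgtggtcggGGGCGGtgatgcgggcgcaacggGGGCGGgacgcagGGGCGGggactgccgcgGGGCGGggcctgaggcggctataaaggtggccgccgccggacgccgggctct
KCNT1 (chr9:135701935-135702184, plus strand): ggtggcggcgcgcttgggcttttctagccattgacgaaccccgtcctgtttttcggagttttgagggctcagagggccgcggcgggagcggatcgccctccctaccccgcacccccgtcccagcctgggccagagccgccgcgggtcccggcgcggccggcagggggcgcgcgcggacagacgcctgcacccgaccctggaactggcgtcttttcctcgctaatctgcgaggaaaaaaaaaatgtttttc

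A GC box was found in the same 250 bases of 42.6% of the 35116 promoters in the table, and 4 or more in 7.63%. The stretch before BAIAP2 held 9 GC boxes, that before ZFPM1 held 7, that before RXRA held 6, that before NOTCH1 held 4 and that before GSE1 held 2, while KCNT1 had none. The share of G and C was 89.2% before RXRA, 83.2% before ZFPM1, 78.0% before BAIAP2, 76.0% before NOTCH1, 74.0% before GSE1 and 66.8% before KCNT1, each above the median of 58.0% over all promoters. These stretches belong to another build than the list and were not placed on it. The signal is therefore described by distance from the 5′ edge of each gene interval, which is given to the nearest kb and need not be a start. For GSE1 it is not the start in the table: the starts of GSE1 and ZFPM1 lie 2840 kb apart in GRCh38.p14 and the edges of their intervals 3119 kb apart in hg19. The same comparison differed by 3.73 kb for RXRA and KCNT1 and by 3.41 kb for RXRA and NOTCH1. Values at the 5′ edge of GSE1 thus say nothing of the start whose bases are described here, and the table holds more than 1 start for RXRA (2) and BAIAP2 (4).

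Listed regions covered 88.7% of the 8 intervals together, from 79.2% of BAIAP2 to 93.6% of ZFPM1. Of the 179 whole bins of 5 kb, counted from the 5′ edges, 154 (86.0%) held 20 summits or more. Over the listed genome 0.407% of 5 kb bins did, and since the genes were chosen by summit density nothing is read from that difference. The median bin held 26 summits and the fullest 33, reached in GSE1, ZFPM1, RXRA, NOTCH1 and BAI1, and no 5 kb bin of the whole list held more than 35. A window chosen for its number of summits has to hold many full bins, so the plateau in the profile of summits along each gene restates the choice. What it adds is where the dips lie, such as the 5 summits at 40 to 45 kb in GSE1, 8 at 30 to 35 kb in KCNT1 and 8 at 25 to 30 kb in BAIAP2.

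**Figure D1:**
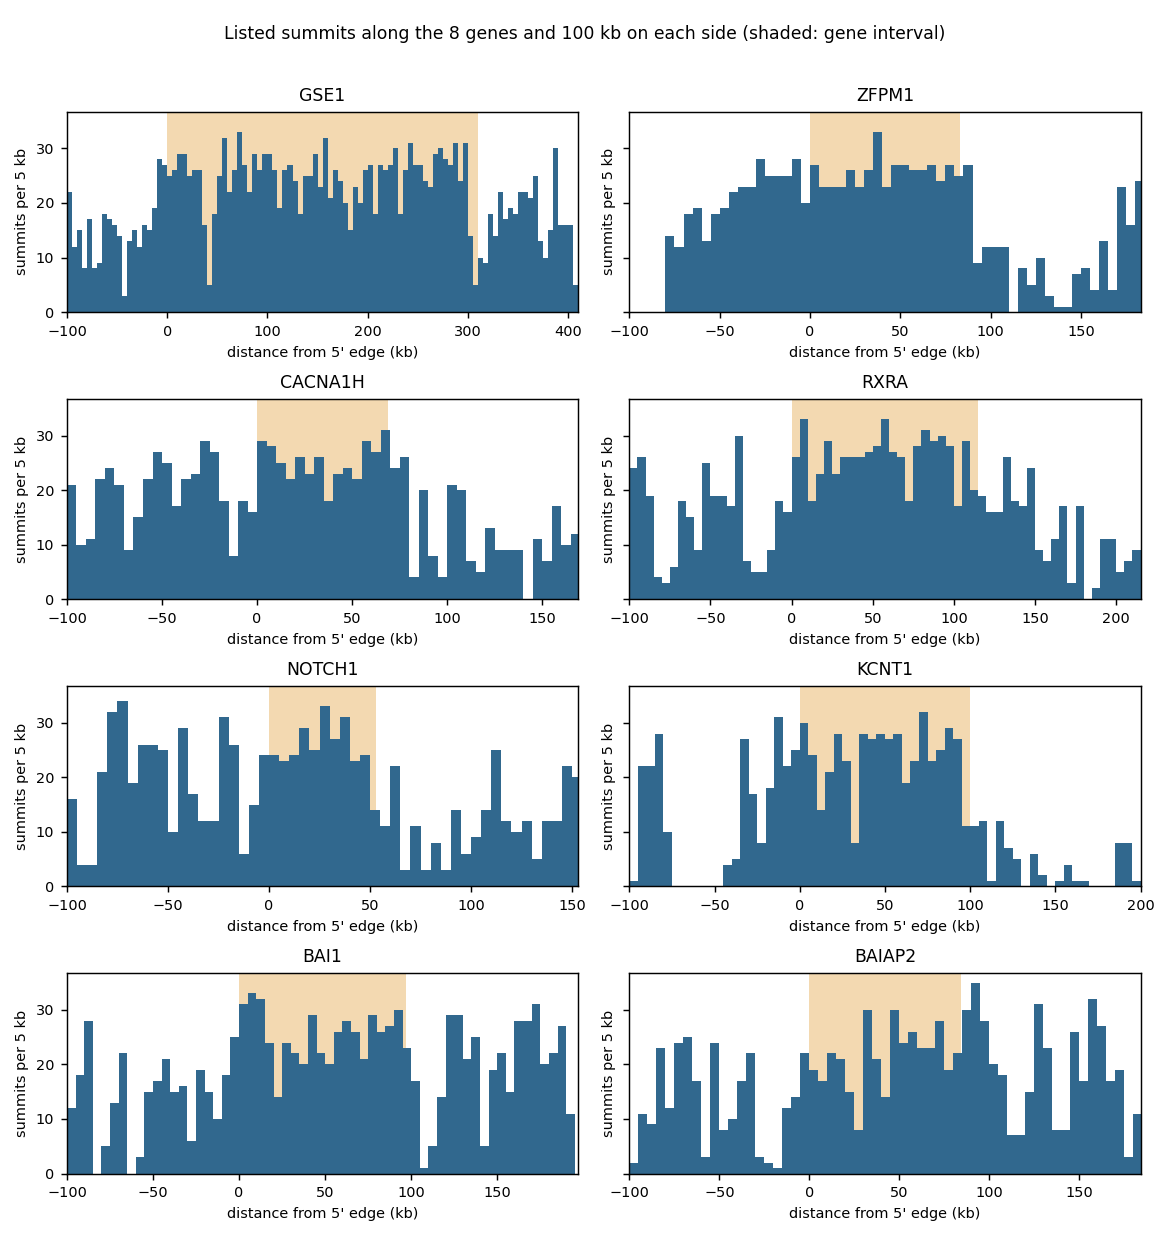
Number of listed summits per 5 kb (y axis) against the distance from the 5′ edge in kb (x axis) for each of the 8 genes, with 100 kb on both sides; shading marks the gene interval. Inside the genes most bars stand above 20 and none exceeds 33, whereas outside they range from 0 to 35.

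Within listed regions, summits were spaced alike in the genes and elsewhere. Neighbouring summits of the same region lay a median of 157 bp apart in the 8 genes (25th percentile 118, 75th percentile 212, 4119 distances), and a median of 156 bp apart over the whole list (115 and 216, 173698 distances). Per covered kb, the genes held 5.57 summits and the whole list 5.07. In the flanks of the genes, taken as stretches of the same length on each side, this value ran from 5.25 per covered kb beside RXRA to 5.66 beside BAIAP2. The genes thus differed from their flanks in the length covered more than in summits per covered kb. Their regions were long, with a median of 1124 bp against 208 bp over the whole list. With summits spaced alike, genes chosen for many summits have to be covered over much of their length. Coverage and the length of regions therefore largely follow from the choice, and nothing is read from them.

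**Figure D2:**
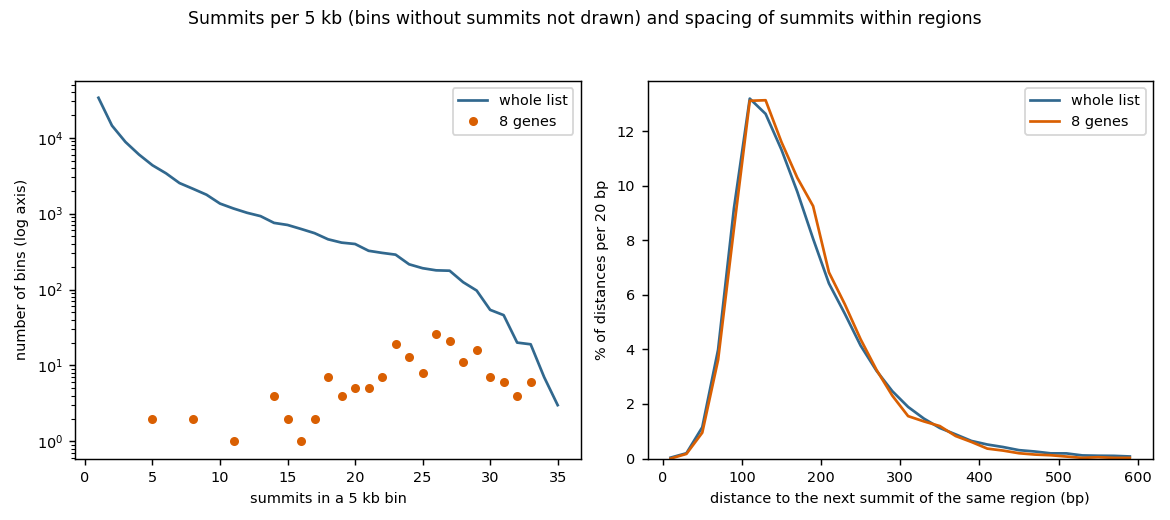
Left, number of 5 kb bins (log axis) by the summits they hold, for the whole list (line) and the 8 genes (points). Right, percentage of distances between neighbouring summits of the same region per 20 bp, for both sets; the curves lie close together, with medians of 157 and 156 bp, whereas the bins of the genes lie at the upper end of the list, around 26 summits.

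The density of summits in the 10 kb at the 5′ edge, divided by that in the rest of the gene, had a median of 1.09 over the 8 genes. With most of each gene covered and summits spaced alike, this ratio had little room to rise, so it cannot show whether signal was concentrated at the 5′ edge. It was above 1 in 5 genes (GSE1, CACNA1H, RXRA, KCNT1 and BAI1) and below 1 in ZFPM1, NOTCH1 and BAIAP2. The extremes were BAI1, with 6.40 summits per kb in its first 10 kb against 4.97 in the rest, and BAIAP2, with 3.60 against 4.35. The median ratio fell to 0.954 when the first 20 kb were taken, so its side of 1 depends on the length chosen. Height is not capped in this way, and the median fold of the first 10 kb was below that of the rest in 5 genes and above it in GSE1, CACNA1H and BAIAP2.

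The strongest summit of each of the 8 genes lay more than 10 kb from the 5′ edge of its interval. Few summits lie in those 10 kb, 51 of 1524 in GSE1, the longest interval, and 47 of 272 in NOTCH1, the shortest. A highest summit beyond them is therefore likely from length alone, and nothing is read from this count. Fold enrichment, as the authors' peak caller gave it, equals the read pileup at the summit plus 1, divided by the background plus 1. The background was 2.01 reads for all summits, so the fold ranks summits by their own pileup. In NOTCH1 the highest summit reached a fold of 45.2 (135 reads) at chr9:139430144, 10.9 kb from the 5′ edge. Its region of 3221 bp also held the next highest summit (38.6), and no summit of another region in the gene exceeded 18.6. CACNA1H had a fold of 44.6 (133 reads) at 32.7 kb, in a region of 2997 bp with 16 summits, and 17.0 as the highest fold outside that region. In both genes a few summits of a single region therefore stood far above the gene as a whole, whose median fold was 7.98 in NOTCH1 and 6.65 in CACNA1H.

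ZFPM1 showed a broader maximum at 67.2 kb, with a fold of 38.2 (114 reads) in a region of 5380 bp with 28 summits, and a second region reached 23.9. In BAI1 the maximum was 33.2 (99 reads) at 34.1 kb, in KCNT1 25.9 (77 reads) at 70.9 kb, and in BAIAP2 25.6 (76 reads) at 43.8 kb. GSE1 had its highest summit at 246.8 kb (fold 27.6, 82 reads), nearly equalled by another region at 254.6 kb (27.3). The edges of GSE1 and ZFPM1 lay 279 kb further apart than their starts in the promoter table. The GSE1 start in that table may therefore lie inside the interval, in its 3′ part, near these summits. The exact distance was not determined because the builds differ. RXRA had the lowest maximum, a fold of 16.6 (49 reads) at 96.2 kb, and was the only gene of the 8 with no summit of 50 reads or more. The highest summit in the first 5 kb ranged from a fold of 12.0 in ZFPM1 and CACNA1H to 17.3 in GSE1. By rank among all summits of its gene it came 8th in BAI1, 9th in RXRA, 10th in CACNA1H, NOTCH1 and BAIAP2, 14th in KCNT1, 39th in ZFPM1 and 48th in GSE1. These ranks are out of unlike numbers of summits, from 272 in NOTCH1 to 1524 in GSE1.

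**Figure D3:**
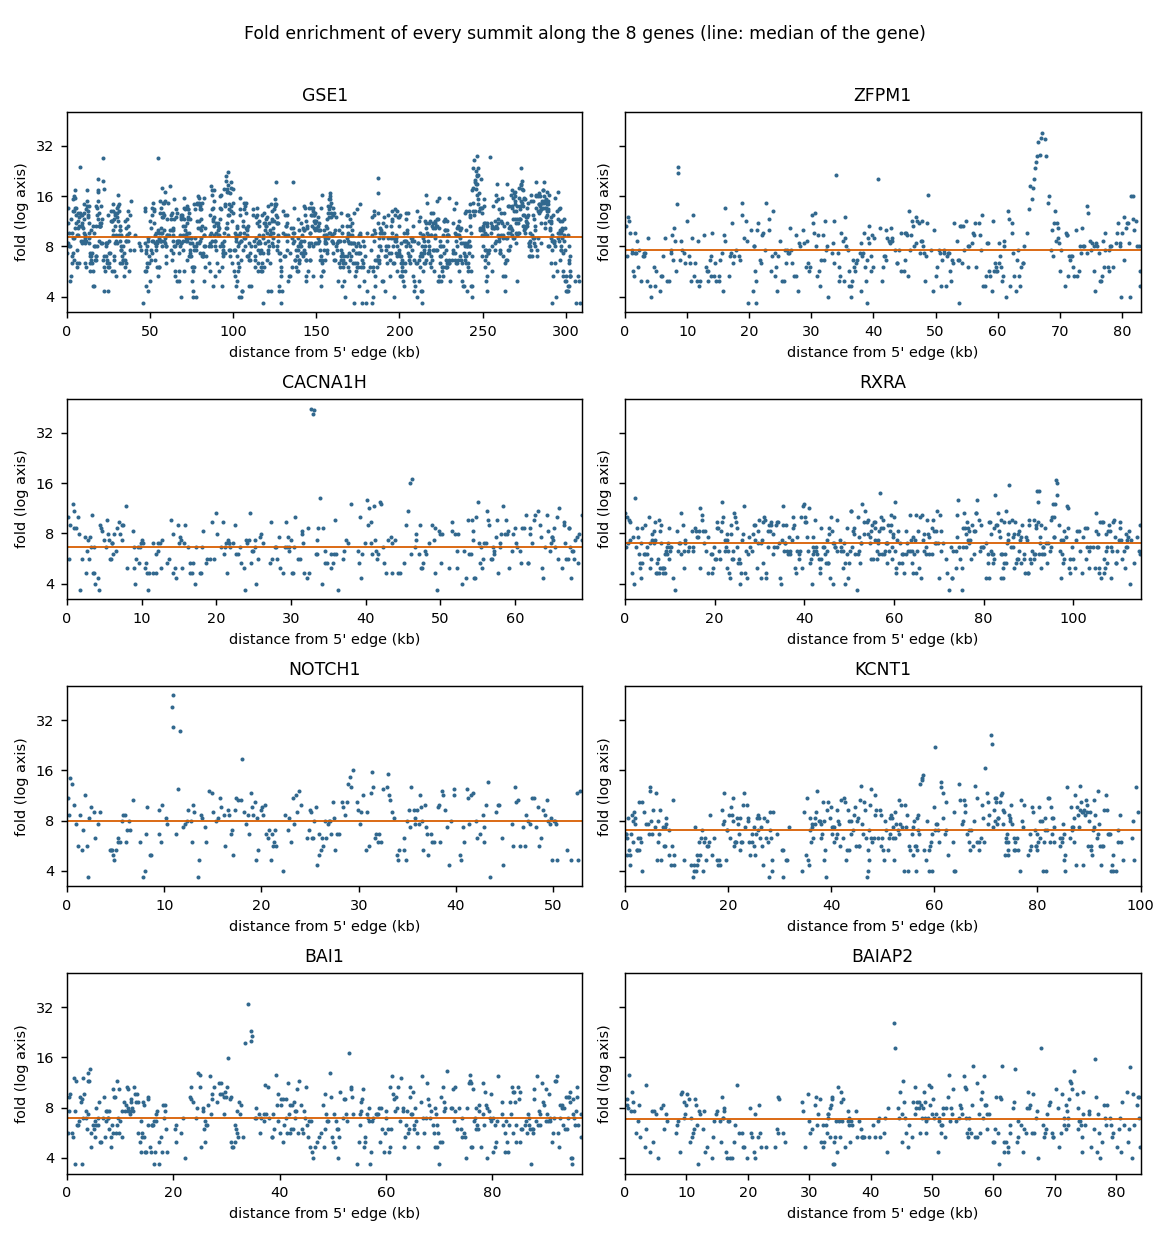
Fold enrichment of each listed summit (y axis, log scale) against its distance from the 5′ edge in kb (x axis) in the 8 genes; the line is the gene's median fold. Single clusters of high summits stand out in NOTCH1 near 10.9 kb, CACNA1H near 32.7 kb, BAI1 near 34.1 kb and ZFPM1 near 67.2 kb, while RXRA has no summit above a fold of 16.6.

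Median fold ran from 6.65 to 9.14 over the 8 genes and from 6.65 to 7.98 without GSE1. GSE1 had a median fold of 9.14 (26.5 reads), followed by NOTCH1 with 7.98 and ZFPM1 with 7.65. RXRA, KCNT1 and BAI1 shared a median of 6.98, BAIAP2 had 6.82 and CACNA1H 6.65 (19 reads). All 8 lay above the median of 5.32 (15 reads) over the whole list, and above those of their own chromosomes, which ran from 5.65 on chromosome 17 to 5.99 on chromosomes 8, 9 and 16. A pileup of 20 reads or more was reached by 2818 of the 4501 summits in the 8 genes (62.6%; 95% Wilson interval 61.2 to 64.0%) and by 26.5% of the list (26.35 to 26.64%). GSE1 alone had 78.5% (76.4 to 80.5%), and without it the share in the other 7 genes was 54.45%. NOTCH1 followed with 64.3% (58.5 to 69.8%) and ZFPM1 with 61.45% (56.8 to 65.9%), whose intervals overlap. BAI1 had 56.05% (51.6 to 60.4%), KCNT1 51.6%, RXRA 51.4%, BAIAP2 179 of 358 and CACNA1H 49.6% (44.3 to 54.8%), and neighbours in this order overlapped as well. These intervals cover counting error only, since summits of 1 region are not independent and reads amplified by PCR are not independent molecules. Summits under 10 reads are not listed, so choosing genes by summit count may also favour high pileups. The differences from the whole list are therefore a description only.

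Flanks of each gene's own length were taken on both sides to describe the signal around the gene's edges. Because the genes were chosen by summit density, a higher density inside than outside was largely fixed in advance and is no finding. All 8 genes were denser in summits than either flank, by a median ratio of 1.82 over both flanks together, from 1.24 in BAIAP2 to 2.97 in KCNT1. This holds for summits, not for regions: with each region counted once, at its highest summit, the median ratio was 0.520, and 6 of the 8 genes had fewer regions per kb than their flanks. GSE1, for example, held 110 regions, against 278 in its 5′ flank and 215 in its 3′ flank. In those 6 genes the regions were thus fewer and longer than in the surroundings. KCNT1 and BAIAP2 were the exceptions in the number of regions. In KCNT1 the regions were longer too: 49 covered 84.4% of the gene. In its flanks of the same length, 47 covered 41.3% on the 5′ side and 40 covered 15.6% on the 3′ side. Among summits of 20 reads or more the median ratio was 2.90.

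**Figure D4:**
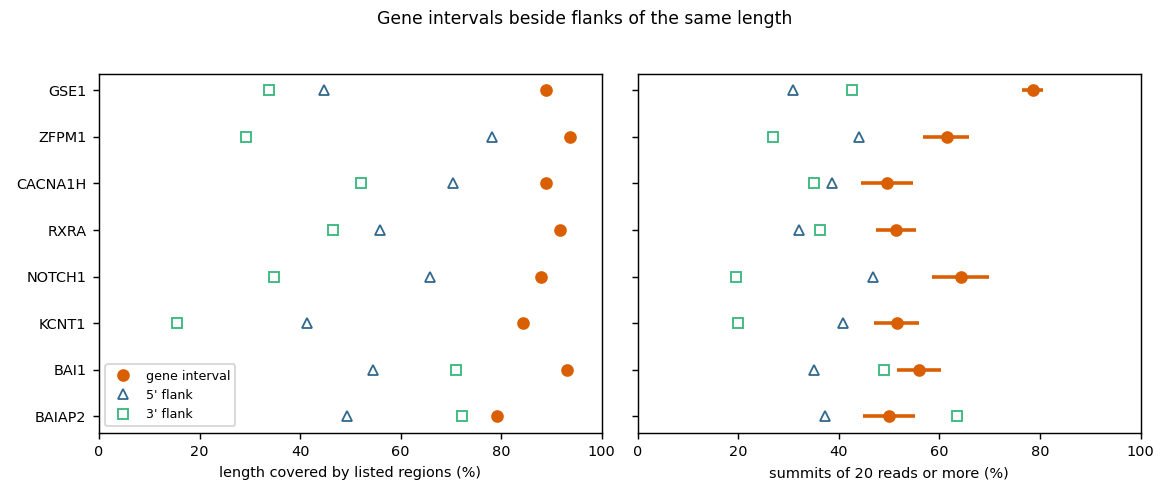
Percentage of length covered by listed regions (left) and percentage of summits with 20 reads or more (right) in each gene interval (filled circles; bars are 95% Wilson intervals) and in its 5′ flank (triangles) and 3′ flank (squares) of equal length. Coverage is higher in the gene than in both flanks for all 8 genes, and the share of summits with 20 reads or more is so for 7, the exception being BAIAP2 where 179 of 358 summits reach it in the gene and 63.5% in the 3′ flank. The higher coverage largely follows from the choice of the genes by summit density.

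KCNT1, the potassium channel gene (chr9:138590001-138690000), had the steepest fall in coverage, from 84.4% in the gene to 15.6% in the 3′ flank. Its last 10 kb held 38 summits, the next 10 kb 23, and the whole 100 kb after the gene 80. On its 5′ side the signal ran on for 10 kb without a step (47 summits before the edge and 54 after it), and coverage over the 5′ flank was 41.3%. In the RefSeq gene order SOHLH1 lies before KCNT1 and CAMSAP1 after it. Inside KCNT1 the longest stretch without a summit was 2626 bp, 31.8 kb from the 5′ edge.

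ZFPM1, the GATA cofactor gene (chr16:88519001-88602000), was dense well beyond its 5′ edge, toward ZNF469. Its 5′ flank was 78.2% covered, with 4.00 summits per kb against 5.16 in the gene, and the 10 kb on both sides of the edge held 48 and 50 summits. The 3′ flank, toward ZC3H18, was 29.3% covered with 1.70 summits per kb, and the share of summits with 20 reads or more was 27.0% there against 61.45% in the gene. No stretch over 670 bp inside ZFPM1 lacked a summit, the shortest such maximum among the 8 genes. CACNA1H, the calcium channel gene (chr16:1203001-1272000), also had a dense 5′ flank (70.4% covered, toward C1QTNF8) and a thinner 3′ flank (52.0%). Both of its edges differed: the first 10 kb of the gene held 57 summits after 34 in the 10 kb before it, whereas the last 10 kb held 56 and the next 10 kb 52. TPSG1 overlaps CACNA1H in the RefSeq gene order, and the summits were not divided between them.

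Around RXRA, the nuclear receptor gene (chr9:137218001-137333000), coverage was higher in the gene than on either side. Coverage was 56.0% in the 5′ flank toward WDR5, 91.6% in the gene and 46.5% in the 3′ flank toward COL5A1. The 10 kb before the gene held 34 summits, the first 10 kb 59, the last 10 kb 49 and the next 10 kb 35. The median fold was 5.99 in both flanks and 6.98 in the gene. RXRA had the most summits per kb of the 8 genes, 5.23, although its summits were among the lower ones in height.

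NOTCH1 (chr9:139388001-139441000), which is read on the minus strand, had its dense flank on the 5′ side toward EGFL7, with 65.9% coverage and 46.7% of summits at 20 reads or more. The gene itself had 87.9% and 64.3%, and the 3′ flank toward SEC16A 34.8% and 19.6%. All 10 whole bins of 5 kb in NOTCH1 held at least 23 summits. A single region of 8139 bp, from chr9:139419368 to 139427506, held 49 of its 272 summits.

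GSE1, the corepressor partner, had the longest interval, 310 kb on chromosome 16 from 85400001 to 85710000, and held 1524 summits in 110 regions. Of the 7 listed regions of 10 kb or more in these genes, 6 lay in it, and its widest, from 85656885 to 85686796 (29912 bp), held 164 summits. Among 9724 windows of 310 kb laid end to end along the chromosomes, the fullest held 1255 summits. Windows that overlap GSE1 were not left out, so that window may hold part of the gene. The median fold in the 5 kb bins was highest at 245 to 250 kb from the 5′ edge (16.3), the bin that holds the highest summit of the gene, and at 285 to 290 kb (14.3). Near the 3′ edge the signal fell inside the interval: the bin from 295 to 300 kb held 31 summits, the next 14 and the last 5, and coverage fell from 98.0% to 54.6% and 22.5%. Beyond the edge it rose again, to 22 summits in the bin from 330 kb and 30 in that from 385 kb, where the median fold was 9.48. The 3′ flank of 310 kb held 558 summits and was 33.9% covered. At the 5′ edge itself there was no step, with 55 summits in the 10 kb before it and 51 after it. The rise lay further upstream. The 5 kb bins that begin 10 and 5 kb before the edge held 28 and 27 summits. Those that begin 35 to 15 kb before it held 12 to 19. The whole 5′ flank of 310 kb held 739 summits, was 44.8% covered and had a median fold of 5.65. The RefSeq table places GINS2 over part of GSE1, CIBAR2 before it and C16orf74 after it, and summits near GINS2 cannot be assigned to 1 of these genes.

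BAI1 and BAIAP2 had the opposite pattern, with the denser flank on the 3′ side. BAI1, the adhesion receptor gene (chr8:143530001-143627000), was 93.1% covered, its 5′ flank toward TSNARE1 54.5% and its 3′ flank toward ARC 70.9%. Its first 10 kb held 64 summits, the most of the 8 genes, after 43 in the 10 kb before the edge, and its last 10 kb held 59 before 28 in the next. BAIAP2, the gene of its adaptor (chr17:79008001-79092000), was the least covered of the 8 (79.2%), had the lowest median bin (21.5 summits per 5 kb) and the longest stretch without a summit (2843 bp, 26.0 kb from the 5′ edge). Its 3′ flank was covered almost as far, at 72.3%, and was higher in signal, with a median fold of 7.65 against 6.82 in the gene. The widest region that begins in BAIAP2, 19455 bp from chr17:79091334, runs 18.8 kb past the 3′ edge and holds 117 summits. The 10 kb after the gene held 61 summits and the last 10 kb inside it 44. In the RefSeq gene order AATK overlaps BAIAP2, and the list alone does not assign these summits to either gene.

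Set against all windows of their own length, 7 of the 8 genes were among the densest few by choice, with at most 8 windows holding as many summits, and BAIAP2 was matched by 23 of 35827. Windows that overlap the genes themselves were not left out of these counts or of the shares below. Height was set only against windows with at least 50 summits, for ZFPM1 1991 of the 36259 windows. The same cut kept 1587 of 9724 windows for GSE1, the longest interval, and 1986 of 56771 for NOTCH1, the shortest. The shares below therefore rest on unlike sets of windows and do not rank the genes. The genes were also chosen by density, so the shares by height are not compared with the counts by density. Among windows with at least 50 summits, the median fold was as high as in GSE1 in 1.58%, as in ZFPM1 in 3.32%, as in NOTCH1 in 3.53% and as in RXRA in 5.26%. For BAI1 the share was 5.59%, for KCNT1 6.09%, for BAIAP2 6.71% and for CACNA1H 10.96% (220 of 2007 windows).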

How the data were processed

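ATAC-seq was carried out on 2 knock-down and 2 control samples. The submitters' processing notes name Bowtie 1.1.2, MACS2 and the build hg19. Not given in the sources used here are the caller's options, how duplicates were handled and which samples entered. Each summit of the deposited list carries a fold enrichment (a ratio to background) and a −log10 p-value from the authors' peak caller.

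From each distinct pair of fold and p-value (156 pairs within floating point range) the whole-number pileup and the background were solved, which gave 2.01 reads of background in all. Pileups of the list start at 10 reads, so sparser signal is not seen. The solver and the covered-length routine were tested on simulated data (300 and 200 cases, 100% recovered).

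Gene intervals were those of the selection, to the nearest kb, counted from 1. Strand came from the RefSeq promoter table, and for CACNA1H and BAI1 from general knowledge. RefSeq names and positions are of GRCh38.p14. The positions gave the neighbouring and overlapping genes and the spacing of starts, and none was placed on the list. Genes were named because they were chosen; in each the highest summit, the widest region, 5 kb bins and the longest gap were described. The genes, lists and measures were chosen with earlier results of these data known. Without values per sample, no test was run. Python 3.11.15, numpy 2.4.6, pandas 2.3.3, scipy 1.17.1 and matplotlib 3.10.9 were used.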

Additional observations from a re-analysis of the deposited data

How the results depend on the processing

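The number of summits in the 8 genes (4501) was 382 with each region counted once, 371 with regions within 100 bp merged, 2818 at 20 reads or more and 2977 without GSE1, each by construction. The median density ratio of gene to flanks (1.82) was 2.90 at 20 reads or more, 1.716 with intervals narrowed by 5 kb, 1.54 and 1.79 with flanks of 50 and 200 kb, and 1.705 without regions of 10 kb or more. It turned to 0.520 with each region counted once, where 2 of the 8 genes (KCNT1 and BAIAP2) kept a ratio above 1, since most genes hold fewer and longer regions than their flanks. Coverage (88.7%) was 87.5% with intervals widened by 5 kb and 78.8% without the wide regions. The median fold (7.65) was 9.64 with each region counted once, 7.315 without wide regions and 6.98 without GSE1. The share at 20 reads or more (62.6%) was 76.7%, 59.3% and 54.45% under the same changes. The ratio of the first 10 kb to the rest (1.09) was 1.034 for 5 kb, 1.03 at 20 reads or more and 1.14 without GSE1. It fell below 1 for 20 kb (0.954) and with each region counted once (0.933), where 3 of the 8 genes stayed above 1 in each; the cause was not tested. No paired analysis was possible because summits carry no values of single samples, which also prevented leaving out a sample. Windows with under 10 reads are not listed, so a gap in a gene does not show closed chromatin.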

Other observations

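One stretch of GSE1 departed from the usual spacing of summits. The region on chromosome 16 from 85440015 to 85445671 (5657 bp), 40 to 45 kb from the 5′ edge, held only 5 summits with folds from 7.65 to 9.31. This is 0.884 summits per kb, against a median of 5.67 over the 137 regions of 2 kb or more in the 8 genes, of which the next lowest had 2.50. It lies at the dip in the profile of GSE1, where the bin was 99.7% covered. Over the whole list 82 of 2995 such regions had as few summits per kb. The region was singled out after its values were seen.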
